A study of Mus musculus with 3 samples.

Results

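A set of 10 astroglial genes that had been picked out because their transcripts were higher in brighter cells were followed through every cell, plate and cluster of a single-cell study of the mouse subventricular zone, where adult neural stem cells reside. They are Aqp4, Bcan, Fgfr3, Sparcl1, Gja1, Gjb6, Clu, Gpm6a, F3 and Vegfa, 10 of the 16178 genes in the table of kept cells. They were chosen by measured values: outside the authors' cluster 1, cells with more autofluorescence than the median of their plate were set against the others, and 8 of the 10 passed an edgeR adjusted p of 0.05 there. Gja1 did not pass, and Gjb6 had too few transcripts to be tested. Both belong to the set as genes of the same cells. Values from that comparison are therefore given as a description, and the question taken up here is how much of it is the presence of cluster 3 cells and how much is a relation with brightness inside cluster 3.

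These genes are known from astrocytes, the glia that take up transmitter, move water and ions, and couple into networks through gap junctions. In the subventricular zone the neural stem cells are themselves astroglia: in their quiescent state they share most of these transcripts with neighbouring astrocytes, and many of them are known to decline once the cells are activated and divide. Autofluorescence is light that a cell emits without any label, from metabolic cofactors and stored pigments among other sources, and the title of the study links it to whether such stem cells are activated.

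The cells came from male C57BL/6J mice, with 8 mice pooled per experiment according to the protocol; the series design can be read as 8 mice over all 3 days, so the number of animals behind a plate is uncertain. The labels give no genotype change, treatment or age. All 3 samples form 1 group, labelled neural stem cells; each is 1 plate, with tissue dissociated in trypsin, enriched on magnetic beads carrying an antibody to GLAST, the product of Slc1a3, and then sorted. A myelin depletion step was used for 2 of the 3 experiments, without saying which. Plates 1, 2 and 3 held 43, 45 and 61 kept cells with 297573, 413728 and 478504 estimated transcripts, and taking each plate as 1 experiment, as the series design reads, the plate cannot be told apart from the day, the mice or the myelin step. SORT-seq counts the ends of molecules with an identifier each, so a level here is a count scaled to a common total of the sum it comes from (CPM) and needs no scaling by gene length.

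The authors' clusters carry numbers only, and of the 149 cells labelled neural stem cells most lay in clusters with markers of other types. Cluster 1 (36 cells) was highest for 9 of 9 markers of microglia. Clusters 0 and 2 (42 and 35 cells) shared the highest levels of the 9 oligodendrocyte markers, 4 and 5 each. Cluster 4 (6 cells) was highest for 10 of 10 markers of activated stem cells or progenitors, and cluster 3 (30 cells) for 14 of 16 astrocyte markers and 15 of 19 of quiescent stem cells, lists that include 6 of the 10 genes described here. These markers identify the clusters and are not findings, since the authors drew the clusters from these values. Within cluster 3 the glutamate transporters Slc1a3 and Slc1a2 were detected in 30 of 30 cells and the transcription factor Sox9 in 27. Gfap, a filament of reactive astrocytes and stem cells, had 4 transcripts in 3 cells, the stem cell regulator Nr2e1 28 in 13 cells, and Egfr, the growth factor receptor of activated stem cells, 9. Dcx, which marks neuroblasts, and Foxj1, which marks ependymal cells, were at 0. Cluster 3 is thus like astrocytes or quiescent stem cells, which these markers do not separate.

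Cluster 3 held most of the transcripts of the 10 genes. Summed over the 10, its level was 24993 CPM on plate 1 (25 cells), 35034 on plate 2 (1 cell) and 28681 on plate 3 (4 cells). The microglia-like cluster 1 had 943, 828 and 1048 CPM on the same plates, and in sums of at least 3 cells the oligodendrocyte-like clusters 0 and 2 had 262 to 580. Of all transcripts of the 10 genes 88.5% lay in the 30 cells of cluster 3. Vegfa was the least concentrated, with 73.8% of its transcripts there, and the other 9 genes had between 86.5% (Gpm6a) and 93.8% (F3).

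Among the genes of channels and junctions, Aqp4, the water channel of astrocyte end-feet, stood in cluster 3 at 1011, 1723 and 1481 CPM on plates 1, 2 and 3. Gja1, which encodes the main connexin of astrocyte gap junctions (chr10:56377330-56402513), stood at 2830, 3450 and 3326 CPM. Gjb6, a second astrocyte connexin (chr14:57123303-57133611), was scarcer at 490, 0 and 359 CPM, where the 0 comes from the lone cell of plate 2. The spread between plates 1 and 3, the ones with more than 1 cell, was small beside the distance to other clusters: Aqp4 did not exceed 41.9 CPM in any sum of at least 3 cells outside cluster 3. Gja1 had a second, lower place of expression, with 23 transcripts (250 CPM, exact 95% Poisson interval 158 to 375) in the 5 cells of cluster 4 on plate 1. It made up 33.3% of the transcripts of the 10 genes in cluster 4 (exact 95% binomial interval 22.4 to 45.7%) against 11.3% in cluster 3 (10.3 to 12.3%).

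Both connexin genes and F3, which encodes tissue factor, have a promoter in the RefSeq table, and the 250 bases before their start are shown because 2 of them share a motif and the second connexin does not. The build is GRCm38.p6, the positions are chr3:121723287-121723536 (plus strand) for F3, chr10:56377050-56377299 (plus strand) for Gja1 and chr14:57133612-57133861 (minus strand) for Gjb6, each read 5′ to 3′, and capitals mark TGACTCA, the AP-1 motif, found on either strand.
F3: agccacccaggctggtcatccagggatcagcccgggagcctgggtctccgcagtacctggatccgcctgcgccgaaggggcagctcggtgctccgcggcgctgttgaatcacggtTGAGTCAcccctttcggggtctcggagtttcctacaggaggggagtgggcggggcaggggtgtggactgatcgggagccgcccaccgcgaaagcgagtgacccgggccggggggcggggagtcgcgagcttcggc
Gja1: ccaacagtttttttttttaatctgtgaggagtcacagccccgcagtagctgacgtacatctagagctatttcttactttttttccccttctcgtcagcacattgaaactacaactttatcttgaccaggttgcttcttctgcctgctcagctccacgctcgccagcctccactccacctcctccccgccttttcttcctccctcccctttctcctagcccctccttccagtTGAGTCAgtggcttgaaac
Gjb6: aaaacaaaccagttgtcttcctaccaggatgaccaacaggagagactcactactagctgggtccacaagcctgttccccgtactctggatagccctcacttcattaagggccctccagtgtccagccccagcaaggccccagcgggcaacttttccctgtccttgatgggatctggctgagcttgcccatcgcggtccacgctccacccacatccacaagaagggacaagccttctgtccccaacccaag
The motif begins 135 bases before the start of F3 and 19 before that of Gja1, and 4.46% of all 32851 such windows hold it. Of the 10 genes 7 had at least 1 window, 10 windows in all. The other 3 had none and could not be searched. The letters ACGTG, core of the hypoxia response element, were in windows of Gpm6a and Vegfa and in 16.6% of all windows. TTCNNNGAA, TTGGC and TATAAA were found in Gpm6a alone among the 7 genes with a window, against 7.02%, 41.5% and 12.4% of all windows. A match is a description of these letters, not of a bound site.

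The matrix and secreted genes included the most abundant of the set. Positions of genes here are those of GENCODE vM21, build GRCm38. Clu, the extracellular chaperone clusterin (chr14:65968483-65981547), stood in cluster 3 at 7009, 10136 and 6939 CPM on plates 1, 2 and 3. Sparcl1, a secreted matrix protein of astrocytes that promotes synapses (chr5:104079111-104113733), stood at 6552, 7655 and 8850, and Bcan, the proteoglycan brevican of perineuronal matrix (chr3:87987531-88000230), at 2101, 3944 and 1842. Vegfa, the growth factor of blood vessels (chr17:46016993-46032369), had 574, 1723 and 629 CPM. The 2 leading genes, Sparcl1 and Clu, were also found outside cluster 3. In clusters 0 and 2 on plate 3 they had 89 and 58 transcripts, or 206 and 134 CPM. This puts cluster 3 on that plate 43.0-fold and 51.7-fold higher. In cluster 1 on plate 3 they had 10 and 7 transcripts, or 419 and 294 CPM, and cluster 3 was 21.1-fold and 23.6-fold higher. Vegfa made up 10.2% of the 10 genes' transcripts in cluster 2 (6.04 to 15.8%) and 11.6% in cluster 4 (5.14 to 21.6%), against 2.37% in cluster 3 (1.92 to 2.89%).

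The genes of the cell surface completed the set. Fgfr3, a fibroblast growth factor receptor of astrocytes and their progenitors (chr5:33721674-33737068), stood in cluster 3 at 1248, 1723 and 942 CPM. F3, tissue factor, which starts blood clotting (chr3:121723537-121735048), stood at 696, 2216 and 897. Gpm6a, a membrane glycoprotein of the proteolipid family that neurons express as well (chr8:54954843-55060871), stood at 2483, 2463 and 3417. On plate 1, Sparcl1, Gja1, Clu and Gpm6a were found in 25 of 25 cells of cluster 3, Bcan and Fgfr3 in 24, F3 in 20, Aqp4 and Vegfa in 19 and Gjb6 in 18. Cells of other clusters also carried single transcripts: Clu was detected in 25 of 36 cells of cluster 1, whose median totals were 2469 to 3673 transcripts against 4114 in cluster 3 on plate 1. In cluster 1 the proportions of Sparcl1 and Clu among the 10 genes were 26.3% and 32.5%, against 26.8% and 27.5% in cluster 3. Gja1 and Bcan were lower in cluster 1, at 5.26% and 3.51% against 11.3% and 8.20%. Gpm6a and Fgfr3 were higher, at 15.8% and 7.02% against 10.1% and 4.72%. The proportions in cluster 1 rest on 114 transcripts. How much of the low level outside cluster 3 was free RNA was not tested, and no doublet caller was run.

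**Figure D1:**
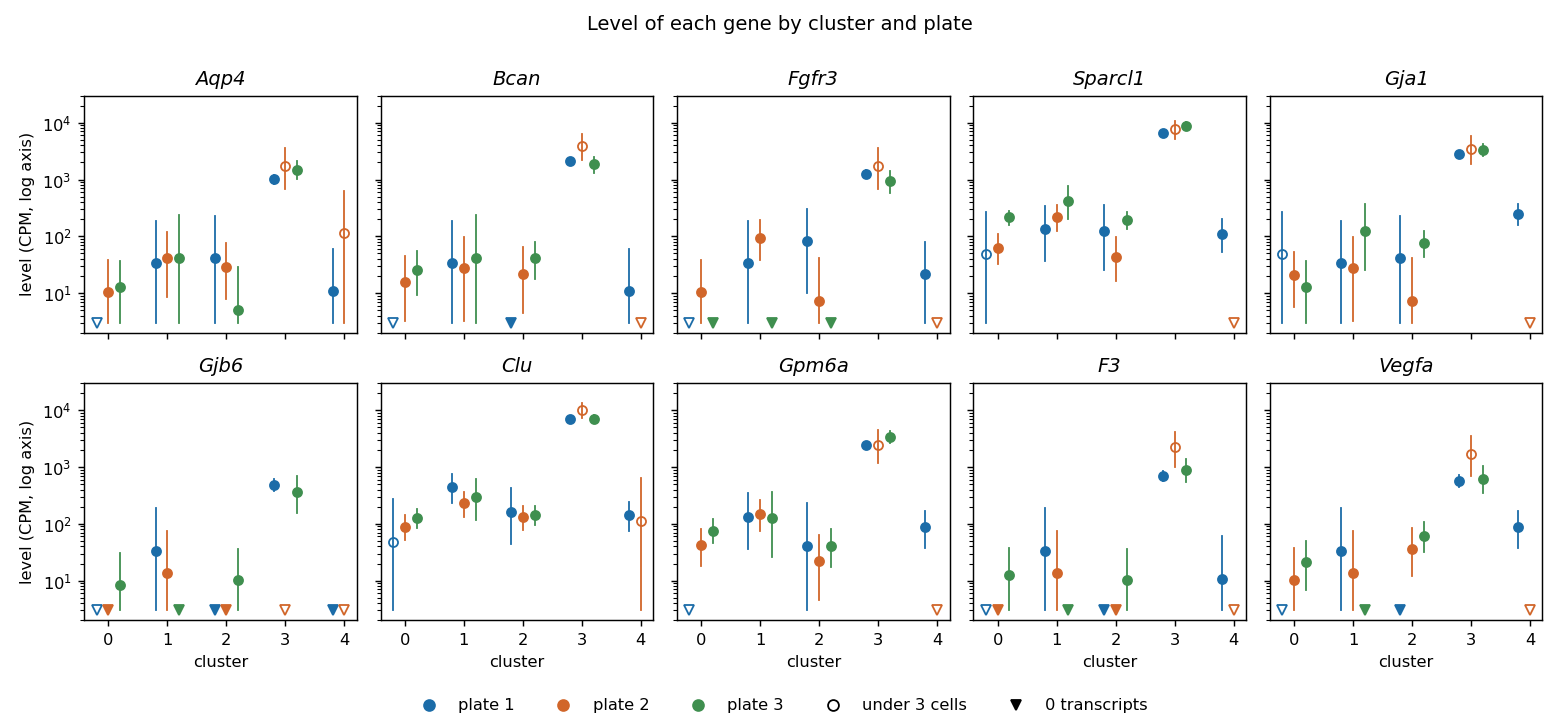
Level of each gene in CPM (log axis) by cluster and plate, with exact 95% Poisson intervals that cover counting error only; open circles are sums of under 3 cells and triangles mark 0 transcripts. Each gene is highest in cluster 3 on plates 1 and 3, and Gja1 has a second point at 250 CPM in cluster 4.

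The comparison that chose the genes put high cells against low cells of the same plate outside cluster 1, split at 1658, 1577 and 1048 units of autofluorescence on plates 1 to 3. It called 10 of 2913 genes higher (0.343%; 11 or 0.378% in either direction), and 8 of the 10 are members. Aqp4 had 983 CPM in high and 165 in low cells on plate 1, 49.7 and 28.9 on plate 2, and 126 and 5.90 on plate 3. Gja1 had 2553 and 723, 84.5 and 14.4, and 260 and 106 CPM. Gjb6 had 446 and 95.1 on plate 1, no transcript on plate 2, and 38.6 and 5.90 on plate 3. The high class was above the low one on each plate where a channel or junction gene was detected, and both classes were lower on plates 2 and 3, which had 1 and 4 cells of cluster 3 against 25 on plate 1.

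The matrix and secreted genes had the same order. Clu had 6248 and 1566 CPM in high and low cells on plate 1, 319 and 93.8 on plate 2, and 574 and 289 on plate 3. Sparcl1 had 6238 and 1169, 214 and 43.3, and 822 and 307. Bcan had 2024 and 336, 89.5 and 28.9, and 169 and 41.3. For each of these genes plate 1 carried most of the transcripts. Vegfa had 564 and 133, 54.6 and 21.6, and 102 and 11.8, where the low class of plate 3 rests on 2 transcripts.

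At the cell surface, Fgfr3 had 1156 and 254 CPM on plate 1, 44.7 and 7.21 on plate 2, and 66.7 and 11.8 on plate 3. F3 had 646 and 133, 44.7 and 0, and 77.2 and 17.7. Gpm6a had 2323 and 495, 94.4 and 14.4, and 285 and 124. All 10 genes were higher in the high class wherever either class had a transcript. The fitted log2 changes of the 9 genes tested, all but Gjb6, ran from 1.69 (Clu) to 2.63 (Aqp4). Nearest inside the limit were Clu, Gpm6a and Vegfa, which shared an adjusted p of 0.0389 with Slc4a4, a bicarbonate transporter, and nearest outside it was Gja1 at 0.0576, ahead of Slc1a2 at 0.0615. Each plate mattered to these calls: without plate 1 edgeR called 7 genes, 2 of them members, without plate 2 it called 0 genes, and without plate 3 it called 5, all lower and none of them a member. Without the plate block it called 0. Every member tested stayed above 0 in these fits. The median log2 change of the members was 1.60 (6 genes) without plate 1, and 2.44 and 2.45 (10 genes each) without plates 2 and 3. It was 2.42 without the block and 2.28 in the main fit (9 genes each).

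The classes differed in their cells. On plate 1, 16 of the 17 high cells and 9 of the 17 low cells belonged to cluster 3, which gave 84.5% of the transcripts of the high class and 24.0% of the low class. The 5 cells of cluster 4, large cells with a median of 18159 transcripts, were all low and gave 58.3% of the low class. On plate 2 the lone cluster 3 cell was high and gave 2.02% of that class. On plate 3 cluster 3 gave 6.84% of the high and 1.66% of the low class, from 3 and 1 cells.

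For each gene the difference in CPM between the classes of plate 1 was split exactly into a term for the unequal shares of the clusters and a term for unequal levels inside a cluster. Makeup accounted for a median of 74.3% of the difference over the 10 genes and the levels inside cluster 3 for a median of 26.2%. Clu had the largest makeup share at 85.7%, followed by Gja1 at 81.1% and Gjb6 at 79.8%. Vegfa had the smallest at 59.3%, with 40.7% from inside cluster 3, and Aqp4 and Bcan followed at 66.7% and 67.3%. Put as ratios, the observed high over low fold ran from 3.53 (Gja1) to 6.02 (Bcan) with a median of 4.69, and makeup alone, with each cluster held at its mean level, gave a median of 3.38. The split is for 1 plate and has no replicate.

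The share depended on which cells stood on the low side. Without cluster 4, with the plate's median taken anew, the median fold fell to 1.87 and that from makeup alone to 1.31, so that makeup accounted for a median of 43.2% and the levels inside cluster 3 for 60.8%. On plate 3 the median makeup share was 64.2%, with single genes between 16.6% and 133%, and on plate 2 it was 99.97%, with single genes between 63.4% and 138%. The lone cluster 3 cell of plate 2 leaves nothing to compare inside that cluster, so what is not makeup there comes from the other clusters. Weighting cells equally in place of transcripts gave 66.0% on plate 1.

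**Figure D2:**
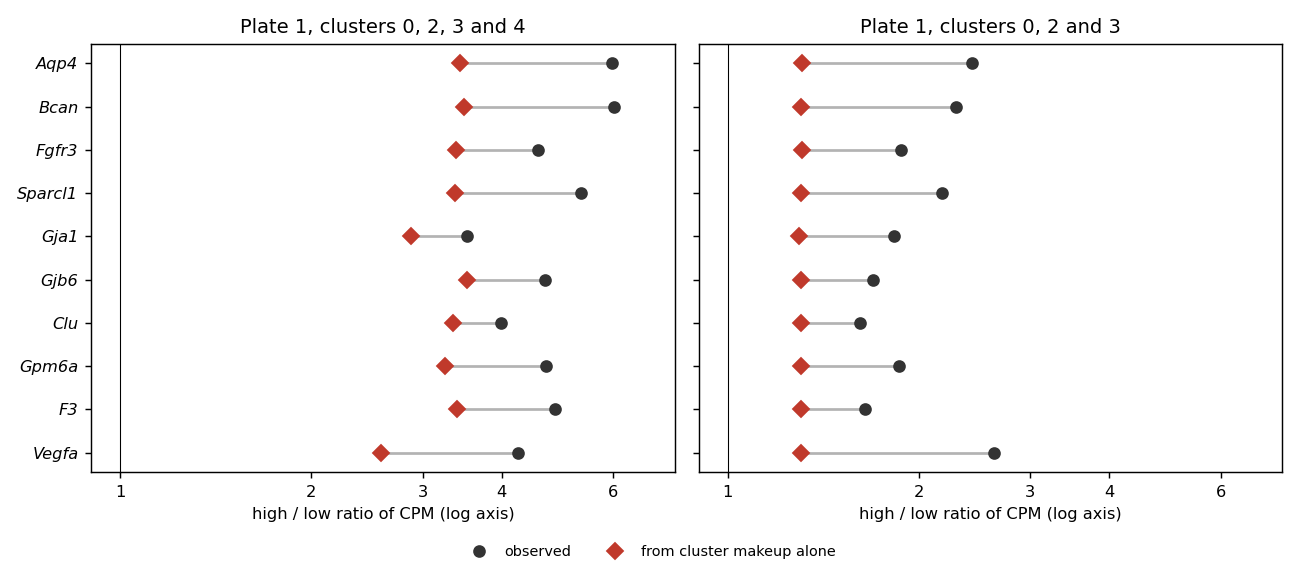
High over low ratio of CPM on plate 1 (log axis) for each gene, as observed (circles) and as the unequal shares of the clusters alone would give it (diamonds), with clusters 0, 2, 3 and 4 on the left and without cluster 4 on the right. With cluster 4 the observed ratios lie between 3.53 and 6.02 and makeup alone reaches 2.58 to 3.53; without it the observed ratios lie between 1.62 and 2.63.

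With cluster 3 left out, the same comparison over clusters 0, 2 and 4 called 0 of 2494 genes (0%, 57 at an unadjusted p under 0.05, edgeR). Only Sparcl1 and Clu of the 10 had enough transcripts to be tested, with log2 changes of -0.16 and 0.04. In the oligodendrocyte-like cells and cluster 4 the other 8 genes lay under the filter on low counts, so a change with brightness could not be measured for them. Without cluster 4, 3 of 2587 genes were called, all higher, among them the members Sparcl1 (log2 1.53) and Bcan (1.60).

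Genes of the same kinds outside the set were read from the same comparison, as a description, since passing it was part of how the set was chosen. Of 15 genes of astroglial channels, junctions and transport 11 were tested, and of the 9 that are not members 2 passed, among them Slc4a4 (log2 2.73), where 0.343% of all genes tested were called higher; the median of the 9 was 1.21, against 0.01 for all genes tested. Of 8 tested matrix or secreted genes that are not members 0 passed, with a median of 0.96. The 2 tested genes of fibroblast growth factor signalling other than Fgfr3, Fgfr2 and the Ras inhibitor Spred1, stood at 0.06 and 0.10. The 6 other tested hypoxia-responsive genes, of the group to which Vegfa belongs, had a median of 0.05, with 0 past the limit, and Bnip3, a mitochondrial hypoxia gene, was the farthest from 0 at 0.79. Without cluster 3 the channel and matrix genes that are not members had medians of -0.18 (7 genes) and -0.33 (6 genes), with 0 past the limit. Astrocyte markers other than the 10 genes had 27747 and 7281 CPM in high and low cells of plate 1, and markers of activated stem cells or progenitors 173 and 7247. Their part in the values of single genes was not tested.

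To hold the clusters more even, high and low cells were taken within each plate and cluster. A cluster with a lone cell on a plate was left out there, so plate 2 held only clusters 0 and 2 and no cluster 3 cell. Of 2765 genes 0 were called (0%, 139 at an unadjusted p under 0.05; DESeq2 also called 0, with 19 unadjusted). Of the 10 genes 7 had enough transcripts, and their log2 changes were 0.76 for Sparcl1 (SE 0.32), 0.68 for Aqp4 (SE 0.39), 0.48 for Vegfa (SE 0.43), 0.45 for Clu, 0.27 for Gja1, 0.22 for Gpm6a and 0.20 for Bcan. The edgeR adjusted p was 0.980 for Sparcl1 and 0.998 for the others. All 7 were above 0, with a median of 0.45 against -0.003 for all genes, a value that is not independent of the choice of the genes. Equal numbers of cells did not make equal transcripts: on plate 1 cluster 3 still gave 60.5% of the high and 44.2% of the low class. Without plate 1 the median of the 7 was -0.22, with 2 above 0, and without cluster 3 the 3 genes still tested had a median of -0.07.

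**Figure D3:**
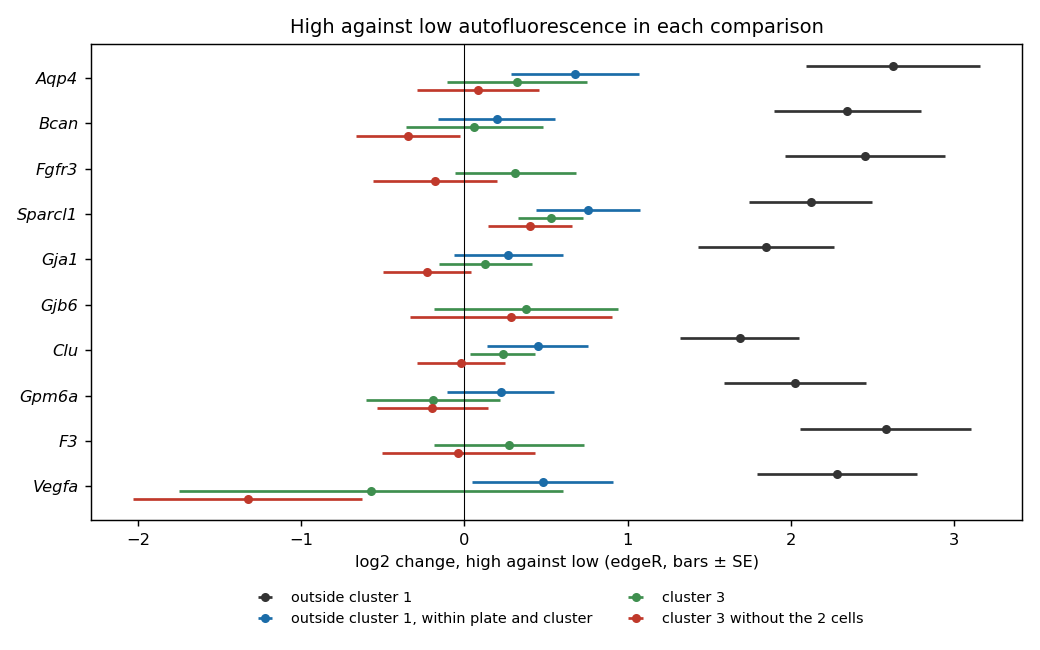
Log2 change of high against low cells by edgeR, with bars of 1 SE, for each gene in the comparison that chose the genes (outside cluster 1), within plate and cluster, in cluster 3, and in cluster 3 without the 2 cells described in the text. Changes of 1.69 to 2.63 outside cluster 1 give way to changes of at most 0.76 within plate and cluster, and several cross 0 in cluster 3; genes under the filter on low counts have no point.

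Inside cluster 3 on plate 1, the 12 cells above the cluster's median had 79986 transcripts and a median brightness of 2299 units, and the other 13 had 50802 and 1408. Sparcl1 had 7729 CPM in the bright and 4699 in the dim cells, a ratio of 1.64 (exact 95% interval for counting error 1.41 to 1.91). Aqp4 had 1228 and 670 (ratio 1.83, 1.23 to 2.79) and Bcan 2459 and 1537 (1.60, 1.23 to 2.11). Vegfa had the largest ratio, from 58 and 17 transcripts, at 2.17 (1.24 to 3.97). The 2 connexin genes stood at 1.43 (1.14 to 1.79) for Gja1 and 1.21 (0.708 to 2.13) for Gjb6. Fgfr3, Gpm6a and F3 stood at 1.44, 1.43 and 1.29, and Clu at 1.25 (1.09 to 1.44).

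All 10 genes were thus higher in the bright cells of cluster 3 on this plate, with a median log2 ratio of 0.52. Of the 284 genes with at least 50 transcripts in these cells 62.7% were higher, with a median of 0.16. These cells were part of the comparison that chose the genes, so the values of the 10 genes are not independent of that choice. The intervals cover counting error in 25 cells of 1 plate and not the variation between cells, and the groups overlapped for each gene. Sparcl1 per cell averaged 7241 ± 2324 CPM in the 12 bright and 4890 ± 3171 in the 13 dim cells (SD over cells), and F3 602 ± 474 and 598 ± 514. Together the 10 genes took 1.61 to 4.13% of a bright cell's transcripts (median 2.65%) and 0.344 to 3.32% of a dim cell's (median 2.24%).

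**Figure D4:**
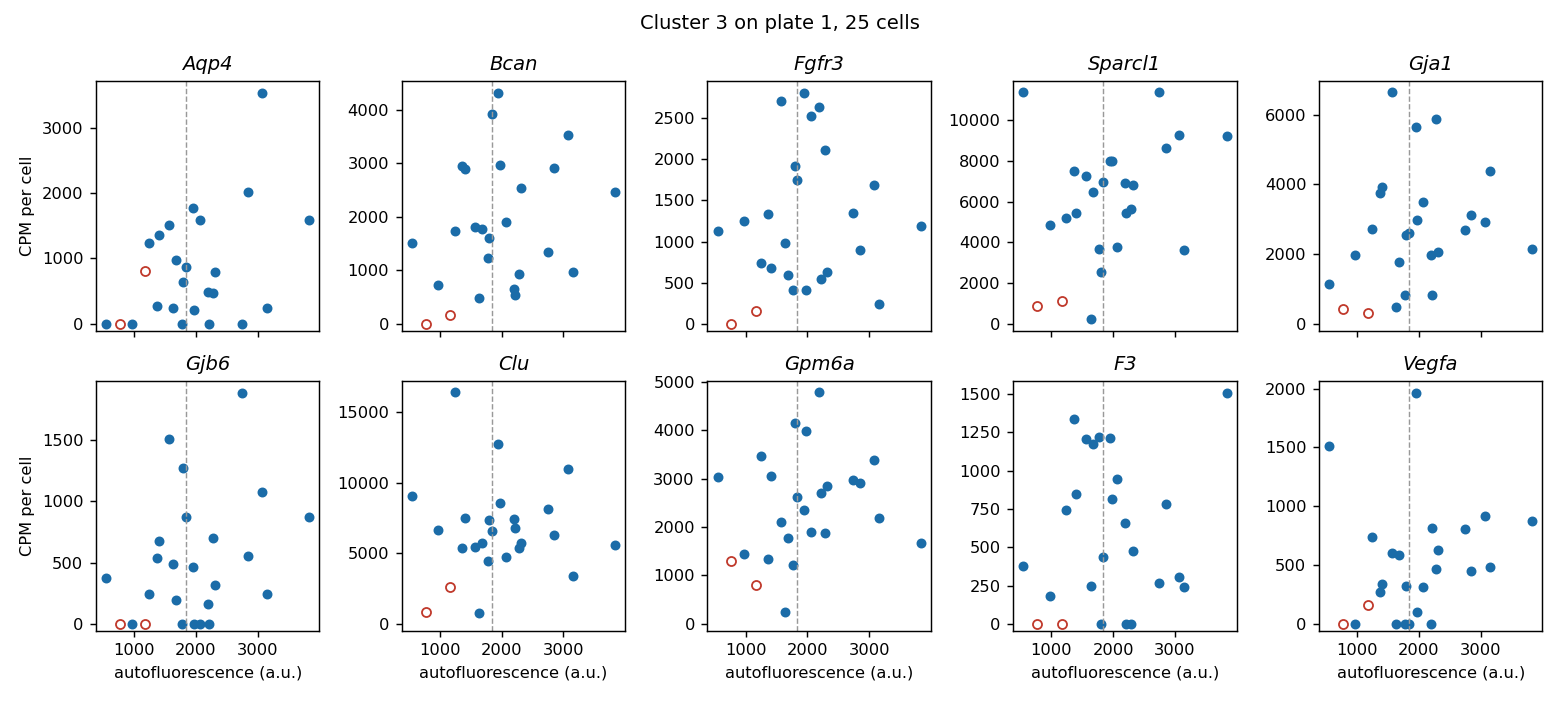
Level of each gene per cell in CPM against autofluorescence in arbitrary units for the 25 cells of cluster 3 on plate 1; the dashed line is the median, and the 2 open points are the dim cells with the highest share of markers of other cell types. Bright and dim cells overlap for each gene, and zeros are most frequent for Gjb6, Aqp4 and Vegfa.

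Across the 25 cells the Spearman correlation with brightness was highest for Sparcl1 (0.36), Vegfa (0.35) and Gja1 (0.34). Gjb6 and Aqp4 followed at 0.31 and 0.30, Bcan and Gpm6a at 0.28 each and Fgfr3 at 0.17. Clu and F3, at 0.08 and 0.07, were close to the middle of all genes. The median of the 10 was 0.29, against 0.06 over the 1192 genes found in at least 10 of these cells, of which 59.6% were above 0. The 10 genes were found in 18 to 25 of the cells, and the 175 genes found in at least 20 had a median of 0.10. The points share 1 plate and differ in depth. Of the 1192 genes 6.04% had a higher value than Sparcl1 and 47.4% a higher one than F3. The 10 genes were chosen in part from these cells, so their place among the 1192 genes is not independent of the choice. Brighter cells also had more transcripts in all (correlation 0.42) and a higher deposited mitochondrial percent (0.28). With each cell thinned to 2288 transcripts the median of the 10 was 0.23, and with the cell's total held constant it was 0.21. The genes found in at least 20 cells then had medians of 0.09 and 0.06.

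Among the 13 dim cells, 2 stood apart with the largest shares of markers of other cell types, 1.13% and 0.689% of their transcripts, where no bright cell exceeded 0.187%. One, at 1173 units, carried 50 transcripts of microglial markers and 16 of markers of activated stem cells or progenitors beside 38 of the 10 genes. The other, at 769 units, carried 15 of endothelial or mural markers beside 8 of the 10 genes. Without these 2 cells, a choice made after seeing the data, the median correlation was 0.15, against 0.03 over all genes, and 7 of the 10 stayed above 0. Aqp4 and Vegfa kept 0.26 and 0.27 and Sparcl1 0.25, whereas Fgfr3, Clu and F3 stood at -0.03, -0.12 and -0.13. The makeup share of the plate 1 difference was then 83.4%. A further dim cell, at 1636 units, had 17 transcripts of the 10 genes among 4069, or 0.418%, with 0.0492% of markers of other types.

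**Figure D5:**
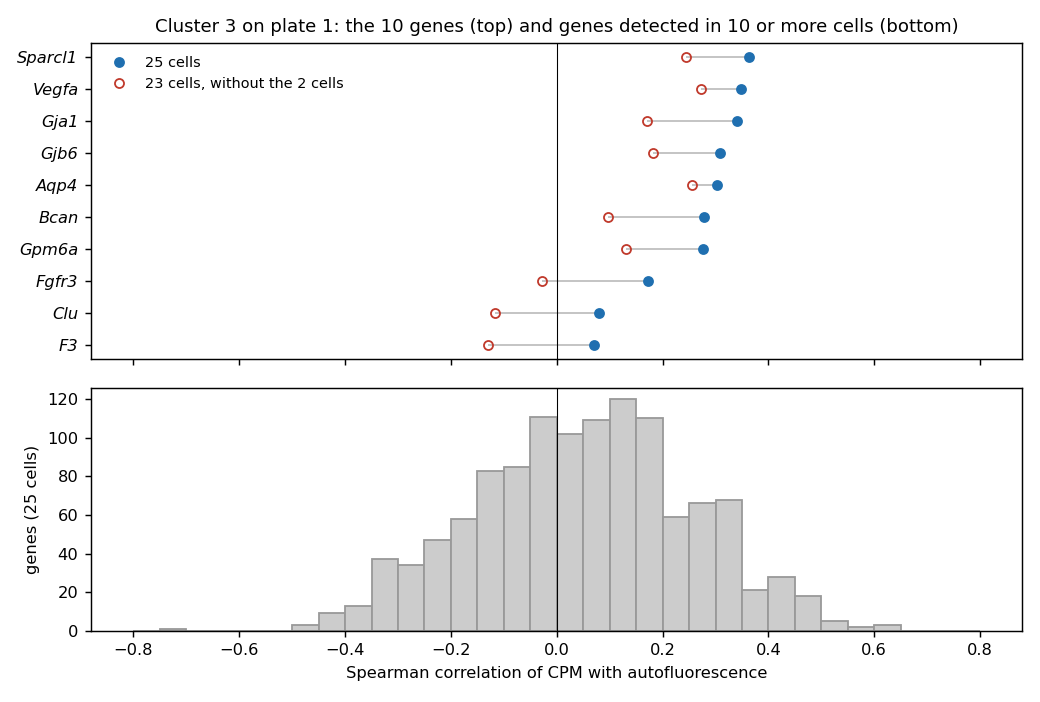
Spearman correlation of CPM with autofluorescence in cluster 3 on plate 1, for each of the 10 genes with 25 cells and without the 2 cells (top), and as a histogram over the 1192 genes found in at least 10 of the 25 cells (bottom, number of genes). The 10 genes lie between 0.07 and 0.36, above the median of 0.06 of the 1192 genes. Genes found in at least 20 cells had a median of 0.10, above Clu and F3. Each of the 10 is lower without the 2 cells, with Fgfr3, Clu and F3 below 0. The cells were part of the comparison that chose the 10 genes.

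Plate 3 had 4 cells in cluster 3, 2 on each side of the median. There 5 of the 10 genes were higher in the brighter pair, with a median log2 ratio of -0.13. Of the 41 genes with at least 50 transcripts 73.2% were higher, with a median of 0.26. Among the 10 genes only Sparcl1, Clu, Gpm6a and Gja1 had that many transcripts, and the others had 8 to 41. Sparcl1 stood at 9732 and 7480 CPM and Clu at 7338 and 6319, while Gpm6a stood at 2362 and 5056 (ratio 0.468, 0.287 to 0.755). Vegfa had 1 transcript in the bright pair and 13 in the dim pair, all 13 in 1 cell. Fitted over plates 1 and 3 with 1 residual degree of freedom, edgeR called 0 of 437 genes in cluster 3 (0%, 7 unadjusted; DESeq2 0, with 1 unadjusted). Sparcl1 had the largest change of the 10 relative to its error, 0.53 (SE 0.20, edgeR adjusted p = 0.995). The 10 genes had a median of 0.25, with Vegfa (-0.57) and Gpm6a (-0.19) below 0, and without the 2 cells a median of -0.11, with 3 above 0. A count of 0 in so small a fit does not show that the genes do not differ.

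The 10 genes also varied together from cell to cell. Over the 25 cells, 44 of their 45 pairs had a positive Spearman correlation, with a median of 0.37, against 0.04 over the 15225 pairs of genes found in at least 20 of these cells. Clu and Gpm6a formed the closest pair at 0.82 and Gpm6a and F3 the most distant at -0.03. Bcan had the highest median with the other 9 (0.46) and F3 the lowest (0.21). Without the 2 cells the median was 0.23 and 42 pairs were positive. The pairs share cells and depth, so these values describe 1 plate. The 10 genes were chosen in part from these cells by a shared rise with brightness, so their pairs are not independent of that choice.

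Across the 11 sums of at least 3 cells from 1 plate and cluster, the genes most like the mean of the 10 were Tmco1, a membrane protein of the endoplasmic reticulum (Spearman 0.95 among 4279 genes), Acsl6, a fatty acid ligase (0.94), Paxbp1 (0.93), Notch2, a Notch receptor (0.92), and S1pr1, a receptor for sphingosine phosphate (0.92). Acsl6 and S1pr1 had 88.7% and 86.7% of their transcripts in cluster 3, as the 10 genes do, whereas Tmco1 had 27.6%. Likeness in rank across these sums is thus no measure of restriction to cluster 3. Of the 635 genes found in 13 or more of the 25 cells and outside the 10, brightness in cluster 3 on plate 1 went most with Sfxn5 (0.57), a mitochondrial carrier, Slc7a2 (0.55), an amino acid transporter, Nfic (0.51) and Pou3f3 (0.50), both transcription factors, and Tubb4b (0.50), a tubulin. Lowest were the ribosomal protein gene Rplp1 (-0.48), Bsg (-0.44), Spen (-0.44), the clathrin gene Cltc (-0.44) and Vdac2 (-0.41), a mitochondrial channel. All 5 of the highest exceeded each of the 10 genes. They were picked as the top of 635 genes over 25 cells, so this follows largely from the ranking. It does not show a closer relation with brightness than the 10 genes have. With cells thinned to equal totals, the 5 highest stood at 0.54, 0.40, 0.47, 0.25 and 0.33 in the order named, and Gja1 at 0.43. The 5 lowest then stood at -0.40, -0.39, -0.25, -0.23 and -0.45.

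Cluster 1 took no part in choosing the genes, so its comparison is independent of the choice. Its bright cells had 1475 CPM of the 10 genes together on plate 1 and its dim cells 637, from 16 and 12 transcripts. On plate 2 the values were 730 and 913, from 25 and 36 transcripts, and on plate 3 they were 1118 and 1007, from 10 and 15. The direction differed between plates: the mean log2 ratio was 0.35 ± 0.79 (SD, n = 3; higher on 2 of 3 plates; exact two-sided sign-flip permutation p = 0.75, where 3 plates cannot go below 0.25). None of the 10 passed the filter on low counts, and edgeR called 0 of 210 genes there (0%, 2 unadjusted; DESeq2 0, with 0 unadjusted). With 114 transcripts of the 10 genes in all, these cells could neither show nor exclude a change of the 10 genes with brightness.

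Kept cells of different plates shared well positions, 37 positions on 2 plates and 13 on 3. In plates 2 and 3, the 30 cells outside cluster 3 that sat in a position held by a cluster 3 cell on plate 1 had 450 CPM of the 10 genes, and the 71 other cells outside cluster 3 had 489.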

How the data were processed

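Autofluorescence and transcripts were measured in single cells on 3 plates, which form 1 group. The deposited values are estimated counts, made by the authors from molecular identifiers; inverting the collision correction with a pool of 4096 gave whole numbers for 100% of 349688 values above 0 (tolerance 1e-06). The authors deposited per cell an autofluorescence intensity in arbitrary units, a count of genes, the mitochondrial percent, a G0 score and cluster numbers; how each was made is not stated, and 11 further columns were not used. Of tools, the submitters' processing notes list R 4.2.0, Seurat 4.1.1 and BWA 0.7.15, and of builds mm10 and hg19, with no role for any. Libraries were matched to plates by the last digit of their names.

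Transcripts were summed per plate and class of brightness and rounded. Cells above the median of their plate (or of their plate and cluster) are high and the others low. edgeR 4.0.16 in R 4.3.3 tested the sums by its quasi-likelihood F test after its own low-count filter and TMM scaling, with a plate block and with Benjamini-Hochberg adjustment over all genes tested at 0.05. The block pairs the 2 classes of cells from the same plate. As the sums of a plate share its cells' source, p-values measure the spread left after plate and class. On simulated data with 8-fold changes and a fixed spread, the fits recovered 100% of the changed genes tested outside cluster 1, within plate and cluster and in cluster 1. In cluster 3 they recovered 88.9%, and the false calls were 7, 7, 4 and 0 in this order. The ratios of the 10 genes inside cluster 3 on plate 1 reached 2.17 at most, and changes of that size were not simulated. Alternatives were DESeq2 1.42.0, RLE size factors, no filter, outer terciles of brightness, identifier counts, no block, each plate left out, and, chosen after seeing the data, cluster 3, cluster 4 or 2 cells left out. Levels (CPM) have exact 95% Poisson intervals and shares exact 95% binomial intervals, which cover counting error only. A correlation over cells is a description and has no p. Likeness to the 10 genes was ranked over sums of at least 3 cells with log2(CPM + 1), among genes with at least 50 transcripts, and the 5 nearest genes, the 5 highest and 5 lowest correlations with brightness and at most 4 genes of each list are named, beside the genes called, of which 1 is not reported here.

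The 10 genes and the gene lists were chosen with earlier results of these data known. Promoters come from RefSeq on GRCm38.p6 and positions from GENCODE vM21.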

Additional observations from a re-analysis of the deposited data

Results flagged for a closer look

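The 10 genes had a signal in wells that the comparisons do not use. The table of all wells holds 86 wells that the authors' table of kept cells leaves out, by a rule not given in the sources used here. Summed over the 10 genes these wells had 143 transcripts, in 65 of the 86, at 4983 CPM (exact 95% Poisson interval 4199 to 5869). Kept cells outside cluster 3 had 508 CPM, and the 30 cells of cluster 3 had 25776. The 86 wells held 28702 estimated transcripts in all, where the 43 kept cells of plate 1 alone held 297573. By plate the level was 9424, 3228 and 5412 CPM on plates 1 to 3. What these wells held was not tested.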

How the results depend on the processing

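Outside cluster 1 the main comparison called 11 genes, 8 of them members. Without the plate block it called 0 genes and 0 members, with RLE size factors 7 and 5, without a filter on low counts 74 (10 members), and between outer terciles of brightness 0 and 0. Leaving out a plate gave 0 to 7 genes and 0 to 2 members, and leaving out cluster 3 gave 0 and 0 and cluster 4 gave 3 and 2. DESeq2 called 13, 8 of them members. Within plate and cluster no filter gave 1 gene and leaving out a plate 0 to 1, against 0; the members called stayed at 0 in all 11 alternatives. The median makeup share of 74.3% was 66.0% by cells, 75.2% with other clusters pooled, 63.0% between outer terciles of brightness, 43.2% without cluster 4, 64.2% on plate 3, 99.97% on plate 2 and 83.4% without the 2 cells. The median correlation of 0.29 was 0.42 unscaled, 0.23 thinned, 0.27 without the brightest and dimmest cell, 0.15 without the 2 cells, 0.21 given the total and 0.24 over plates 1 and 3. The summed level in cluster 3, a mean of 26837 CPM, was 29569 with the lone cell of plate 2.

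Single genes changed sign as follows. Without cluster 3 Sparcl1 stood at -0.16 outside cluster 1, and at -0.073 within plate and cluster, with Clu at -0.087. Within plate and cluster, leaving out each plate in turn gave -0.22 to 1.06 for Aqp4, -1.13 to 0.65 for Bcan, -0.40 to 0.71 for Gja1, -0.61 to 0.97 for Gpm6a and -0.18 to 0.84 for Vegfa, lowest without plate 1 each time; without the 2 cells Bcan stood at -0.26, Gja1 at -0.14 and Vegfa at -0.23; between outer terciles Gja1 stood at -0.19 and Clu at -0.011, and by DESeq2 Bcan at -0.50. In cluster 3 without the 2 cells Bcan stood at -0.35, Fgfr3 at -0.18, Gja1 at -0.23, Clu at -0.020 and F3 at -0.037; by DESeq2 Bcan stood at -0.079, between outer terciles Gja1 at -0.052 and without a filter Gpm6a at 0.078. The cause of these changes was not tested. In cluster 3, leaving out a plate left no residual degree of freedom and was not run. Few transcripts limit Gjb6, F3 and Vegfa, and 1 plate holds 25 of the 30 cells of cluster 3.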
